A study of Mus musculus with 12 samples.

Results

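The CD11b+ phagocytes compared here were taken from mouse brain, 3 libraries from tumors of Msi1-CreER;RasV12 mice (RasV12 CD11b+) and 3 from the cerebellum of Msi1-CreER;GFP mice (Control CD11b+). They are 6 of the 12 libraries of the series and were chosen by their labels alone. The other 6 are GFP+ cells of both genotypes. All groups have a mixed 129 and C57BL/6 background and carry Msi1-CreER, a drug-inducible Cre recombinase driven from the Musashi-1 gene, so that the Control animals also carry the driver. RasV12 is an oncogenic, constantly active form of the Ras protein and is the allele of the tumor mice; the alternative allele in the Control mice expresses GFP. Tissue and genotype changed together, tumor with RasV12 and cerebellum with GFP, so the effect of growing in a tumor and that of the region or allele cannot be told apart. Age, sex, the number of animals and the sorting gates were not given in the sources used here. Nothing in the labels says that same-group libraries came from separate animals, so p-values here refer to library-to-library variation, possibly technical.

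CD11b, the product of Itgam, is an integrin chain carried by microglia, by macrophages recruited from the blood and by neutrophils. Microglia are the resident phagocytes of the brain: in the resting state they express a characteristic set of genes, among them P2ry12, Tmem119 and Sall1, and many of these are known to fall when microglia are activated. Phagocytosis of a neighbouring cell depends on receptors for dying cells, such as Mertk, on a brake, SIRPα, which binds CD47 on the target, and on lysosomes that digest what was taken up.

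Several genes expressed in Control CD11b+ cells stood lower in RasV12 CD11b+ libraries. Among them were Sirpa, the gene of the SIRPα brake, the lysosomal protease inhibitor Cst3, the matrix protein gene Sparc and the tetraspanin gene Cd9. These genes are not particular to phagocytes. Control GFP+ libraries averaged 132680 normalized counts for Sparc and 44624 for Cst3, against 61398.5 and 129778 in Control CD11b+ libraries. For Cd9 the mean was 16937 in RasV12 GFP+ and 11763 in Control CD11b+ libraries. Most resting-microglia genes were lower in every RasV12 library than in every Control library, but few passed the test. What stood higher and clear of background was mostly mitochondrially encoded RNA and pseudogenes, with Spp1 and Lars2 as the only nuclear protein-coding genes of established name in that set.

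The libraries differed in quality along with the groups, and this touches every result that follows. Control CD11b+ libraries 1, 2 and 3 held 19471189, 7883870 and 34601205 reads on genes, and RasV12 CD11b+ libraries 1, 2 and 3 held 3642570, 2951629 and 23589310. Odorant and vomeronasal receptor genes, 1778 in number and hardly used in brain, served as a measure of background. They took 0.174%, 1.84% and 0.183% of reads in the Control libraries and 2.79%, 3.2% and 2.41% in the RasV12 libraries, against 0.0247 to 0.163% in the GFP+ libraries. Mitochondrially encoded genes took 1.32%, 2.54% and 0.63% of reads in the Control libraries and 17.7%, 14.4% and 13.3% in the RasV12 libraries; among the GFP+ libraries the share ran from 1.53 to 30.4%. Control library 2 thus shared the high background of the tumor libraries but not their mitochondrial share. Replicates correlated at r = 0.657 to 0.887 across genes in Control cells and at 0.512 to 0.537 in RasV12 cells; genes are not independent replicates. The part of background, depth and RNA quality in the differences was not tested.

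**Figure D1:**
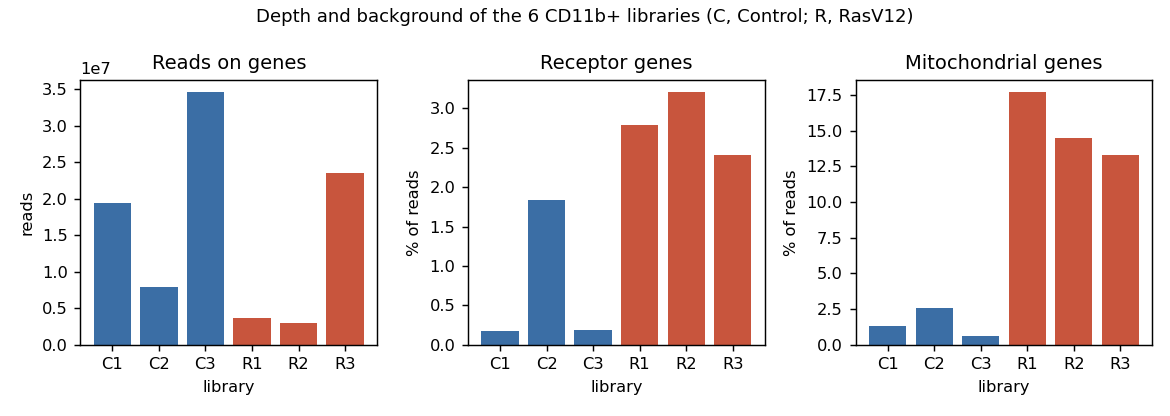
Reads assigned to genes (left), and the percentage of them on receptor genes (middle) and on mitochondrially encoded genes (right), 1 bar for each CD11b+ library with its replicate number. Receptor genes took at least 1.84% in Control library 2 and all 3 RasV12 libraries, and mitochondrial genes at least 13.3% in the RasV12 libraries only.

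To mark the genes that stand clear of this background, the 99th percentile of the receptor genes' FPKM (reads relative to gene length and to the library's total) was taken in each library. It lay at 2.92, 21.1 and 2.92 in Control libraries 1, 2 and 3 and at 51.5, 52.7 and 38.4 in RasV12 libraries 1, 2 and 3. A gene above this value is called here above the receptor level. Of 29835 genes tested, 1187 were above it in all 3 Control libraries and 195 in all 3 RasV12 libraries. A tumor gene of moderate expression could thus not be separated from background by this measure.

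The comparison across all genes used limma on log2(normalized count + 1) with a spread shared by the 4 groups, and called a gene at a Benjamini-Hochberg adjusted p under 0.05. It called 886 genes higher in RasV12 CD11b+ cells (2.97% of those tested) and 713 lower (2.39%). Fitted on the 6 CD11b+ libraries alone, limma called 0 genes in either direction, with 6845 at an unadjusted p under 0.05, against 7908 in the fit of 12 libraries. The edgeR quasi-likelihood test on recovered reads called 30 higher and 404 lower, of which 30 and 351 were also called by limma. Calls rested on the Control libraries: 219 higher and 154 lower were called without Control 1, and 245 and 137 without Control 3, against 3745 and 1503 without Control 2, the Control library of high background. Without RasV12 1, 2 or 3 the lower calls numbered 666, 649 and 1220, and the higher calls 575, 603 and 1088.

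Scaling moved the balance between the directions. The median log2 difference over all tested genes was 0.74 with the deposited scaling, -0.08 with upper-quartile scaling and 0.13 after quantile normalization. Higher calls made up 55.4% of all calls with the deposited scaling, 21.3% with upper-quartile scaling, 30.5% after quantile normalization and 6.9% in edgeR. All 3 RasV12 libraries were higher than all 3 Control libraries for 5664 genes (19%) and lower for 2562 (8.59%). For 3 against 3 libraries the exact permutation test cannot go below 0.1, so no such test is given for single genes.

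The receptor level bore unequally on the directions, since it was higher in the RasV12 libraries. Of the 886 genes called higher, 51 were above it in all 3 RasV12 libraries, which 195 tested genes were able to reach, so that 26.2% of these 195 were called higher and 7.69% lower; 117 of them (60%) were higher in all 3 RasV12 libraries than in all 3 Control libraries. Of the 713 called lower, 201 were above it in all 3 Control libraries, so that of the 1187 genes reaching it there 16.9% were called lower and 34 genes (2.86%) higher. Each of these sets was picked for a high level in 1 group, which favours a difference in that direction: the median log2 difference was 2.75 for the 195 and -1.25 for the 1187. In the 139 genes above the level in all 6 libraries, 34 were called higher and 15 lower, with a median of 0.53. Names of predicted genes or sequenced clones were carried by 557 of all higher calls and by 121 of all lower calls, and protein-coding genes made up 408 and 608. The median of the 1187 was -2.20 with upper-quartile scaling and -1.45 after quantile normalization. Most pan-myeloid (11 of 12), resting-microglia (15 of 16), lysosomal (20 of 24) and Fc receptor (6 of 8) genes belong to the 1187. Those lists are therefore to be read against the 1187, with their 16.9% of lower calls and median of -1.25. Of the 1187, 523 genes (44.1%) were lower in all 3 RasV12 libraries than in all 3 Control libraries. Other lists belong to the 1187 less, among them engulfment machinery (5 of 19) and MHC class I (6 of 15). No single share fits those lists. Over all tested genes, 2.39% were called lower and 8.59% were lower in all 3 RasV12 libraries.

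Identity genes came first. Itgam itself stood at 5010, 5085 and 5256 normalized counts in Control libraries 1 to 3 and at 1350, 1357 and 3101 in RasV12 libraries 1 to 3. Every RasV12 library was lower, with a log2 difference of -1.52 ± 0.86 (SE) that did not pass the test (adjusted p = 0.269, limma). It was above the receptor level in all 3 Control libraries and in none of the RasV12 libraries. The marker of the sort thus did not stand clear of background by this measure in the tumor libraries. Its FPKM there was 16.1, 16.2 and 37.0, where receptor genes averaged 5.32, 5.82 and 4.01. Ptprc, which encodes the leukocyte antigen CD45, read 9032, 5868 and 8632 in Control and 5361, 8789 and 5256 in RasV12 libraries, and the groups overlapped (-0.30 ± 1.10, adjusted p = 0.885, limma). The microglia and macrophage gene Aif1 (IBA1) also overlapped, at 2983, 1822 and 2101 against 2442, 1545 and 5139. None of 12 tested pan-myeloid genes was called, 6 were lower in all 3 RasV12 libraries, and the list's median was -1.62. Of the 1187 genes above the receptor level in all 3 Control libraries, 16.9% were called lower and 44.1% were lower in all 3 RasV12 libraries. Above the receptor level were 11 of the 12 in all 3 Control libraries and 7 in all 3 RasV12 libraries. These 7 were Tyrobp, Fcer1g, Laptm5, Lyz2, Cd68, Csf1r and Aif1, so that phagocyte markers were present in both groups. In a bulk sample, fewer cells of a type and less RNA per cell cannot be told apart.

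Resting (homeostatic) microglia genes lay below Control almost throughout. Of 16 tested, 13 were lower in all 3 RasV12 libraries, and 15 of the 16 belong to the 1187 genes, of which 44.1% were; the median log2 difference was -2.86; it was -3.81 with upper-quartile scaling and -2.37 after quantile normalization. The test called 2 lower and none higher. The first, Sparc, a secreted matrix protein of microglia, read 89103, 28429 and 66664 in Control and 16969, 10439 and 14521 in RasV12 libraries, a log2 difference of -2.01 ± 0.33 (adjusted p = 0.00756, limma). The other was P2ry13, a receptor for extracellular ADP, at 23937, 5556 and 34937 against 686, 930 and 2537 (-3.83 ± 1.0, adjusted p = 0.0434); its adjusted p rose to 0.180 without Control 1, to 0.209 without Control 3, to 0.1 without RasV12 1 and to 0.092 without RasV12 2. Sparc kept its call without any single library, with a largest adjusted p of 0.0395.

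The best known members of that list separated without passing. P2ry12, the ADP receptor that guides microglial processes, read 64660, 32410 and 81751 in Control libraries and 9666, 3916 and 2772 in RasV12 libraries (-3.56 ± 1.58, adjusted p = 0.172, limma). Tmem119, a membrane protein used as a microglia marker, read 27774, 14555 and 55901 against 4430, 3118 and 3163 (-3.0 ± 1.45, adjusted p = 0.202). Cx3cr1, the fractalkine receptor, read 61160, 22455 and 76987 against 6782, 3567 and 7306 (-3.07 ± 1.32, adjusted p = 0.162). For each of these the RasV12 values stayed below the lowest Control value, which came from Control library 2. Part of the width of these errors came from the GFP+ libraries, where the genes were near 0 and uneven: with the 6 CD11b+ libraries alone the SE of P2ry12 was 0.58 in place of 1.58 and that of Cx3cr1 0.56 in place of 1.32, with unadjusted p of 0.000243 and 0.000521 and an adjusted p of 0.118 for both. Called genes went both ways. With the 6 libraries alone the SE was 0.5 in place of 0.33 for Sparc and 0.38 in place of 0.28 for Cst3. It was 0.55 in place of 0.43 for Sirpa, but 0.78 in place of 1.0 for P2ry13.

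Sall1, a transcription factor that holds the microglial state, read 4320, 3892 and 8236 in Control and 200.5, 969 and 808 in RasV12 libraries (-3.26 ± 1.04, adjusted p = 0.0802, limma). Csf1r, the receptor for the survival signals CSF1 and IL-34, read 137908, 34007 and 194559 against 13846, 13973 and 21227 (-2.60 ± 0.87, adjusted p = 0.09). Olfml3 and Slc2a5 overlapped between the groups. All the same, 7 of the 16 genes were above the receptor level in all 3 RasV12 libraries, P2ry12, Tmem119 and Csf1r among them. RNA of such genes was thus present in the tumor libraries. These named genes read lower there without passing the test, and Csf1r is also on the pan-myeloid list.

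**Figure D2:**
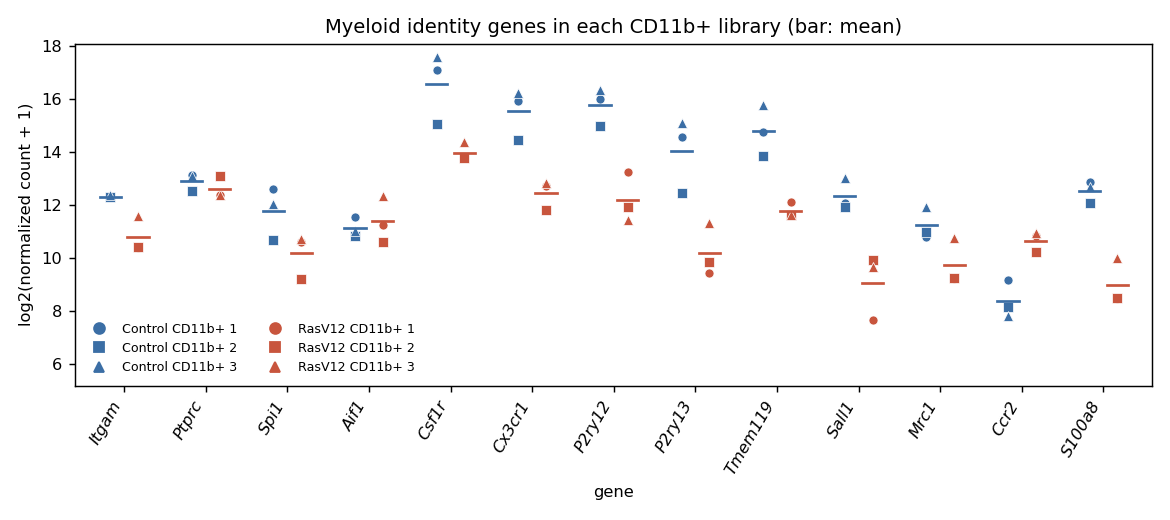
Log2(normalized count + 1) of 13 myeloid identity genes in each CD11b+ library; blue is Control and red RasV12, the symbol gives the replicate and the bar the mean. P2ry12, Tmem119, Cx3cr1 and Sall1 separate completely, Ptprc and Aif1 overlap, and Ccr2 lies higher in RasV12.

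The markers of blood-derived cells did not move together. Ccr2, the receptor that brings monocytes into tissue, read 575, 283 and 223 in Control and 1818, 1196 and 1959 in RasV12 libraries; the groups did not overlap, but the difference of 2.29 ± 1.76 did not pass (adjusted p = 0.411, limma) and no RasV12 value was above the receptor level. Ly6c2, a surface marker of inflammatory monocytes, was at 0 in RasV12 libraries 1 and 2 and at 407 in library 3. Of 15 tested monocyte genes 1 was called, Fn1 (fibronectin), higher at 3886, 3589 and 9197 against 1499, 1332 and 509 (2.32 ± 0.53, adjusted p = 0.0271). Without Control 1, Control 3 or RasV12 3 its adjusted p was 0.0552, 0.118 and 0.0588, and it is also a gene of the tumor cells, with a mean of 15465 in RasV12 GFP+ libraries. The list's median difference was 0.38, and none of its genes was above the receptor level in all 3 libraries of either group. Border macrophage genes, those of the meninges and vessels, had 1 lower call in 12, Lyve1 (885, 546 and 1997 against 75.8, 0 and 5.4; -6.97 ± 1.42, adjusted p = 0.0169). Its adjusted p was 0.0592 without Control 1 and 0.075 without Control 3.

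Neutrophil genes had the lowest median difference of the 37 lists. Of 13 tested, 9 were lower in all 3 RasV12 libraries and 4 passed the test as lower, with a median log2 difference of -3.60. Of the 14 listed, 7 were above the receptor level in all 3 Control libraries, so no single share fits the list. Over all tested genes 8.59% were lower in all 3 RasV12 libraries and 2.39% were called lower. Among the 1187 genes above the receptor level in all 3 Control libraries these shares were 44.1% and 16.9%. Ngp, a granule protein gene, read 12076, 4893 and 11670 in Control and 129, 194 and 0 in RasV12 libraries (-8.23 ± 1.64, adjusted p = 0.0156, limma; 0.068 without Control 1 and 0.0699 without Control 3). Camp, the cathelicidin gene of the same granules, read 2367, 1359 and 1798 against 0, 33.2 and 13.2 (-7.84 ± 1.3, adjusted p = 0.00756), and its call held without any single library. S100a9 and Lcn2 were the other calls; S100a9 read 7623, 4643 and 7265 against 379, 942 and 403 (-3.60 ± 0.97, adjusted p = 0.0486, and from 0.0572 to 0.181 without any library but Control 2). Lcn2 is told with the genes of few reads. The Control phagocytes thus held neutrophil RNA that was lower in the tumor sample. The summed normalized counts of the 14 neutrophil genes were 43968, 21265 and 48959 in Control and 3828, 5173 and 4292 in RasV12 libraries, and the part of neutrophils in other lower genes was not tested.

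Genes of dead-cell recognition and engulfment came next. Mertk, the receptor that recognises phosphatidylserine on dying cells through bridging proteins, read 9068, 9089 and 14540 in Control libraries and 2201, 2930 and 1628 in RasV12 libraries. The groups did not overlap and the log2 difference was -2.28 ± 0.45 (adjusted p = 0.0147, limma; 0.0773 without Control 3). Lrp1, a scavenger receptor, read 20817, 3387 and 17107 against 1689, 731 and 1579 (-3.09 ± 0.65, adjusted p = 0.0188), with 0.0936 without Control 1, 0.0916 without Control 3 and 0.056 without RasV12 2. Mfge8, a bridging protein between dying cell and phagocyte, was the third lower call of 21 tested in this list (1050, 249 and 752 against 89.1, 5.5 and 133; adjusted p = 0.035, and 0.15 and 0.139 without Control 1 and Control 3). Mertk, Lrp1 and Mfge8 were above the receptor level in none of the RasV12 libraries. No gene of the list was called higher, and its median was -1.03. Axl, a relative of Mertk that rises in activated phagocytes, overlapped at 2518, 557 and 2205 against 1301, 1174 and 1094.

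The machinery that closes the phagocytic cup gave 3 lower calls in 19, with a median of -0.84. Elmo1, which with Dock proteins activates Rac, read 6007, 8475 and 12601 against 2665, 3700 and 2144 (-1.64 ± 0.35, adjusted p = 0.0206, limma; 0.103 without Control 3). Wasf2, which links Rac to actin branching, had narrow Control values of 4130, 4651 and 4479 against 321, 1218 and 957 (-2.61 ± 0.52, adjusted p = 0.0156; 0.0592 without Control 1 and 0.0657 without Control 3). Abca1, a lipid exporter, was the other (-2.28 ± 0.60, adjusted p = 0.0443; 0.181, 0.196, 0.114 and 0.0805 without Control 1, Control 3, RasV12 1 and RasV12 2). Elmo1, Wasf2 and Abca1 were above the receptor level in none of the RasV12 libraries. Rac1, Cdc42, Dock2 and Syk were not called. Fc receptors, which bind antibody-coated targets, had 1 lower call in 8: Fcgr3 read 53587, 14871 and 30037 against 4327, 2465 and 4115 (-3.03 ± 0.70, adjusted p = 0.0277; 0.165 without Control 1, 0.132 without Control 3 and 0.0641 without RasV12 2), and the list's median was -2.27.

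Sirpa (GRCm38 chromosome 2, 129592835 to 129632228) had the smallest adjusted p of the genes that restrain engulfment. Its normalized counts were 38727, 15044 and 57091 in Control libraries 1 to 3 and 3561, 3240 and 2038 in RasV12 libraries 1 to 3. The lowest Control library lay above the highest RasV12 library by a wide margin, the log2 difference was -3.49 ± 0.43, and the adjusted p was 0.00158 in limma and 0.014 in edgeR. Sirpa was above the receptor level in all 3 Control libraries and in none of the RasV12 libraries. It stayed called without any single library, at adjusted p from 0.000282 to 0.0151, although not in the 6 libraries alone (0.118). In GFP+ cells the mean was 725 ± 210 (SD, n = 3) for RasV12 and 5109 ± 588 (SD, n = 3) for Control. Related SIRP genes have similar sequences, and the sources used here do not say how the counting divided reads between them. Its ligand gene Cd47 overlapped between the CD11b+ groups at 4723, 2209 and 3559 against 1181, 3074 and 2889 (-0.61 ± 0.42, adjusted p = 0.356). In the 18 genes of inhibitory receptors and their ligands the calls were 2 lower and 1 higher, with a median of -0.62. Siglece, a receptor for sialic acids on host cells, was the other lower call (968, 461 and 2028 against 0, 16.6 and 148; adjusted p = 0.0368, and 0.0658 to 0.15 without Control 1, Control 3, RasV12 1 or RasV12 2). Cd200, which signals rest to microglia from neurons, was higher (95.6, 202 and 32.1 against 539, 964 and 353; adjusted p = 0.0396), below the receptor level in every library. Its adjusted p was 0.109, 0.154, 0.0691 and 0.0952 without Control 1, Control 3, RasV12 1 and RasV12 2.

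Of 24 lysosomal genes tested, 6 were called lower in RasV12 cells and 18 did not pass, and 12 were lower in all 3 RasV12 libraries. Among the 1187 genes above the receptor level in all 3 Control libraries, 16.9% were called lower and 44.1% were lower in all 3 RasV12 libraries. Above the receptor level were 20 in all 3 Control libraries and 14 in all 3 RasV12 libraries. The calls in edgeR were 9 lower and none higher, and the median was -1.93. Cst3, the cathepsin inhibitor cystatin C, read 147002, 108183 and 134149 in Control against 33685, 22585 and 24455 in RasV12 libraries, with a log2 difference of -2.28 ± 0.28 (adjusted p = 0.00165, limma) that held without any single library. Lamp2, a structural protein of the lysosome membrane, read 15280, 6242 and 16214 against 2901, 1412 and 2611 (-2.39 ± 0.50, adjusted p = 0.0185; 0.0859, 0.0892 and 0.0543 without Control 1, Control 3 and RasV12 2). No RasV12 value of Lamp2 was above the receptor level. The protease genes Lgmn and Ctsl fell by 2.35 and 2.38 on the log2 scale (adjusted p = 0.0349 and 0.0333), and both lost the call without Control 1 (0.156 and 0.153), Control 3 (0.16 and 0.101), RasV12 2 (0.0905 and 0.097) or RasV12 3 (0.0589 and 0.0723), and Lgmn also without RasV12 1 (0.0536). Grn (progranulin) and Tfeb, a transcription factor for lysosomal genes, were the remaining calls, at -2.12 ± 0.57 and -3.30 ± 0.82 (adjusted p = 0.0458 and 0.0361). Both lost the call without Control 1 (0.202 and 0.129), Control 3 (0.197 and 0.149), RasV12 1 (0.0752 and 0.0756) or RasV12 2 (0.119 and 0.0766), and Grn also without RasV12 3 (0.06).

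The abundant cathepsins showed how far Control library 2 decided the rest. Ctsd read 155810, 21059 and 116085 in Control and 23275, 16659 and 19573 in RasV12 libraries, so that the groups overlapped through that library (-1.88 ± 0.52, adjusted p = 0.0537, limma). Ctsb did the same at 130426, 13203 and 89479 against 23266, 11874 and 14795. Without Control library 2 the lower calls of the list numbered 19 in place of 6, and those of the resting-microglia list 6 in place of 2.

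**Figure D3:**
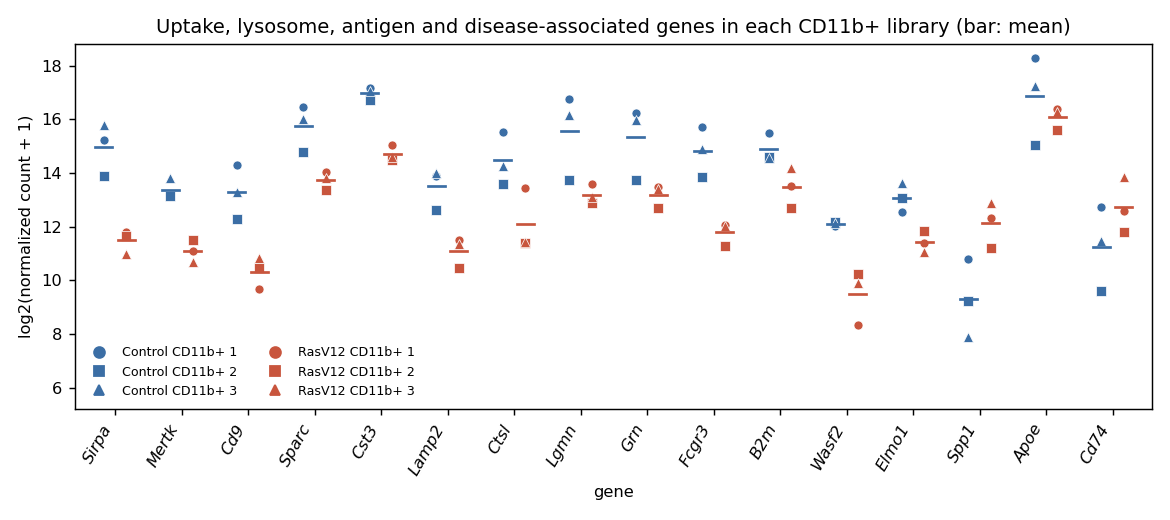
Log2(normalized count + 1) of 16 genes of uptake, digestion, antigen handling and disease-associated microglia in each CD11b+ library; colours, symbols and bars mark the group, the replicate and the mean. Sirpa, Cst3, Mertk and Cd9 separate with RasV12 lower, Spp1 separates with RasV12 higher, and Apoe and Cd74 overlap.

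Disease-associated microglia genes, a set that rises together around plaques and dying neurons, split here. Of 17 tested, 1 was called higher, 1 lower and 15 not, with a median of -0.78. Spp1 (osteopontin; GRCm38 chromosome 5, 104435118 to 104441050), a secreted phosphoprotein, read 1795, 596 and 237 in Control libraries and 5138, 2370 and 7574 in RasV12 libraries. All RasV12 values were higher, by 2.83 ± 0.68 on the log2 scale (adjusted p = 0.0315, limma; 0.306 in edgeR; 0.139, 0.0732 and 0.0682 without Control 3, RasV12 1 and RasV12 3). Cd9 moved the other way at 20329, 4951 and 10008 against 811, 1407 and 1809 (-2.98 ± 0.47, adjusted p = 0.00644), a call that held without any single library. Apoe, a lipid carrier, was at 318777, 33744 and 155994 against 84486, 49184 and 79202, and overlapped (-0.78 ± 0.57, adjusted p = 0.381). Clec7a, Itgax, Axl and Lpl overlapped as well, and Gpnmb lay higher in all 3 RasV12 libraries without passing (1105, 587 and 961 against 45.5, 560 and 43.8; adjusted p = 0.13). Trem2 was listed at 0 in all 6 libraries; its symbol is carried by more than 1 gene entry in the files, and no value is drawn from it.

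Spp1 was also the most abundant of the tumor cells' own genes considered here, with a mean of 233603 ± 107368 (SD, n = 3) in RasV12 GFP+ libraries, of which the RasV12 CD11b+ mean was 2.15%. To set a scale, genes were picked after their values were seen, at 10000 or more in every RasV12 GFP+ library and at most 200 in every Control CD11b+ library. There were 9 of them: Igfbp2, Igfbp5, Cdkn2b, Nptx1, Crip2, Tslp, Hbegf, Spry4 and Timp1. In RasV12 CD11b+ cells they stood at 0 to 1.33% of their GFP+ mean. Igfbp2 stood at 0.27%, 0.019% and 0.023% in RasV12 libraries 1, 2 and 3, where Spp1 stood at 2.20%, 1.01% and 3.24%. In library 1 Tslp, at 2.36%, exceeded Spp1, and in library 2 Igfbp5 (2.49%), Spry4 (2.41%), Hbegf (1.36%) and Crip2 (1.36%) did. The part of tumor-cell RNA in the rise of Spp1 was not tested beyond these values.

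Antigen presentation genes had lower calls and no higher call. For MHC class I, 3 of 15 tested genes were lower and none higher, with a median of -1.59. B2m, the shared light chain, read 45726, 24699 and 24283 in Control and 11591, 6651 and 18750 in RasV12 libraries (-1.42 ± 0.34, adjusted p = 0.0316, limma; between 0.0651 and 0.142 without Control 1, Control 3, RasV12 1 or RasV12 2). Pdia3, a folding enzyme of the loading complex, and H2-T23, a non-classical class I gene, were the other lower calls, at -1.78 ± 0.37 and -4.22 ± 1.02; both lost the call without Control 1 (0.0831 and 0.145) or Control 3 (0.0852 and 0.138), and H2-T23 also without RasV12 2 (0.0559). The classical genes H2-K1 and H2-D1 were not called. The MHC class II list had a median of -0.47, with 2 of 12 tested genes higher in all 3 RasV12 libraries and 4 lower. Over all tested genes 19% were higher and 8.59% lower in this way. H2-Ab1 read 1554, 293 and 931 against 1635, 1584 and 5836 (adjusted p = 0.454) and H2-Aa 609, 4.5 and 188 against 989, 759 and 1524 (adjusted p = 0.177), both higher without passing. Cd74, their chaperone, overlapped at 6757, 768 and 2818 against 6074, 3589 and 14887. H2-DMa and H2-Ob lay lower without passing, at -2.67 ± 1.25 and -4.81 ± 1.63 (adjusted p = 0.192 and 0.0935). The groups overlapped for H2-Ob, at 810, 296 and 1127 in Control and 414, 5.5 and 3.6 in RasV12 libraries. The only call of the list was Cd1d1, which presents lipids and was lower.

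Cytokine, chemokine and polarization genes gave no call. None of 16 inflammatory cytokine genes, 21 chemokine and receptor genes, 16 genes of alternative activation and 16 interferon response genes passed in either direction, with medians of 0.72, 0.12, -0.16 and 0.53. Arg1, an enzyme linked to tumor macrophages, read 24.3, 190 and 49.9 in Control and 57.9, 1080 and 1768 in RasV12 libraries, with RasV12 library 1 inside the Control range (adjusted p = 0.238, limma). Il1b likewise divided the tumor libraries, at 2652, 316 and 2418 against 966, 232 and 477 (adjusted p = 0.564). Cxcl10, a chemokine for T cells, was higher in all 3 RasV12 libraries at 878, 1041 and 1281 against 73.7, 157 and 43.4, and did not pass (adjusted p = 0.208). Tnf read at most 302 and Cd274 (PD-L1) at most 149 in all 6 libraries. The TGF-β receptor gene Tgfbr2, whose signal maintains microglia, was lower (8843, 1908 and 12243 against 299, 111 and 1178; adjusted p = 0.045, and 0.171, 0.193, 0.0908 and 0.122 without Control 1, Control 3, RasV12 1 and RasV12 2). Among Toll-like receptor genes Tlr7, an endosomal sensor of RNA, and Unc93b1, the protein that escorts it, were both lower, 2 calls in 15. Tlr7 read 12266, 4293 and 7711 against 26.7, 199 and 605 (-5.63 ± 1.42, adjusted p = 0.0382), and Unc93b1 25900, 8297 and 32861 against 3565, 3855 and 5347 (-2.20 ± 0.59, adjusted p = 0.0473). Without Control 1 their adjusted p was 0.155 and 0.184, without Control 3 0.141 and 0.213, without RasV12 1 0.0972 and 0.101, and without RasV12 2 0.0668 and 0.0991; for Unc93b1 it was 0.0532 without RasV12 3.

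**Figure D4:**
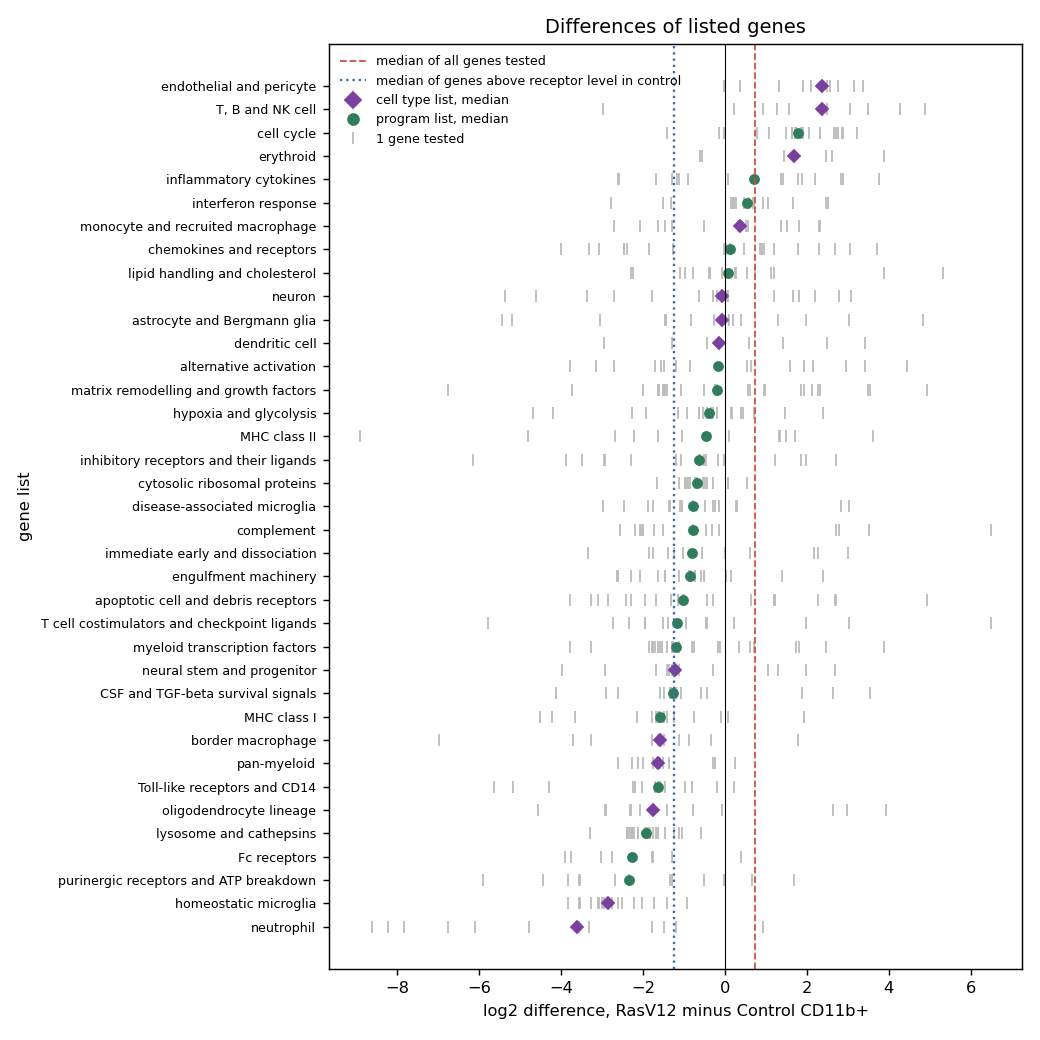
Log2 difference (RasV12 minus Control CD11b+) of every tested gene in 37 gene lists (grey ticks), with the list medians as diamonds for cell types and circles for programs; the dashed line is the median of all genes tested, 0.74, and the dotted line that of the 1187 genes above the receptor level in Control, -1.25. Neutrophil and homeostatic microglia genes have the lowest medians, and endothelial and lymphocyte genes the highest.

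Markers of other cells lay at or near the background of the RasV12 libraries. Endothelial and pericyte genes had a median difference of 2.38 and 2 higher calls in 11, T, B and NK cell genes 2.36 and no call in 11, and cell cycle genes 1.79 and no call in 20; no gene of these 3 lists was above the receptor level in any RasV12 library. Kdr, the endothelial VEGF receptor, read 90.1, 338 and 170 in Control and 1315, 1983 and 2251 in RasV12 libraries (3.37 ± 0.72, adjusted p = 0.0205, limma; 0.0907 and 0.0749 without Control 1 and Control 3). Gfap, the astrocyte filament gene, read 228, 832 and 453 against 2398, 4851 and 3998 (3.02 ± 0.46, adjusted p = 0.00522), was above the receptor level in 2 RasV12 libraries and kept its call without any single library. In the astrocyte list the calls were 3 higher and 2 lower among 14. Vsig4, a complement receptor of macrophages, was nearly absent from Control, at 0, 0 and 2.6, and read 165, 94.1 and 165 in RasV12 libraries (adjusted p = 0.00574; 0.223 in edgeR), again below the receptor level. Mmp12, a macrophage elastase, read 14.9, 44.9 and 26.0 against 816, 936 and 721 (adjusted p = 0.0295; 0.117, 0.102, 0.0586 and 0.0607 without Control 1, Control 3, RasV12 1 and RasV12 2). Receptor genes too took a larger share of reads in RasV12 libraries than in Control libraries, and the part of background in a rise at such levels was not tested.

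**Figure D5:**
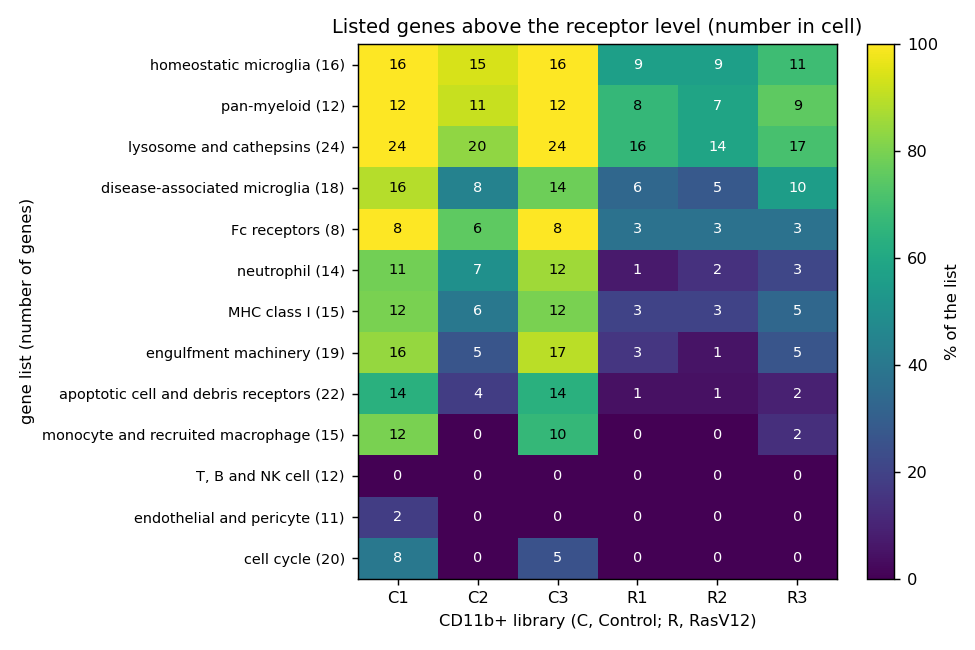
Number of genes above the receptor level in each CD11b+ library for 13 gene lists, with the colour giving the percentage of the list. Lysosome, pan-myeloid and resting-microglia genes stay above it in RasV12 libraries, and T, B and NK cell, endothelial and cell cycle genes do not.

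The 51 higher calls above the receptor level were mostly mitochondrially encoded genes and pseudogenes. They comprised 26 mitochondrially encoded genes, 13 of them protein coding, 10 pseudogenes, 6 small RNA genes, 4 protein-coding genes with predicted names, 2 long non-coding genes, 1 ribosomal RNA gene and 2 other protein-coding genes, Lars2 and Spp1. Of 31 mitochondrial genes tested, 28 were higher and none lower. mt-Cytb, a subunit of respiratory complex III, read 52514, 74002 and 27411 in Control and 774279, 603083 and 407471 in RasV12 libraries (3.60 ± 0.35, adjusted p = 0.000379, limma). Rn18s-rs5, a ribosomal RNA repeat on chromosome 17, read 6044, 10602 and 3639 against 124147, 141733 and 163303 (4.53 ± 0.33, adjusted p = 7.8e-05; 0.0151 in edgeR). Lars2, a mitochondrial leucyl-tRNA synthetase, read 2751, 6644 and 1698 against 24759, 21615 and 34286 (3.07 ± 0.42, adjusted p = 0.00313; 0.0614 in edgeR). All RasV12 values of these 3 genes were higher than every Control value, and the calls of Rn18s-rs5 and Lars2 held without any single library. The mitochondrial share of reads was higher in the same libraries, and the part of RNA quality in these rises was not tested. Only gene totals were available, so where in Lars2 its reads lay was not examined.

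At the other end, the 12 largest falls among well-expressed genes were Inafm1, Ngp, Ecscr, Camp, Alkbh7, Mrpl44, Cd79b, Pgrmc1, Tlr7, Cables1, Slc50a1 and Gpaa1. Mrpl44, a mitochondrial ribosome protein, had near-equal Control values of 597, 606 and 577 against 17.8, 22.2 and 0 (-6.29 ± 1.03, adjusted p = 0.00756, limma). Cables1, a regulator of cyclin-dependent kinases, read 1551, 2175 and 3024 against 53.5, 99.7 and 30.6 (-5.28 ± 0.73, adjusted p = 0.00318; 0.00856 in edgeR), and both calls held without any single library. Pgrmc1, a heme-binding membrane protein, divided the tumor libraries at 4.5, 5.5 and 362 against 2011, 1235 and 1926 (-6.17 ± 1.16, adjusted p = 0.012; 0.0942 in edgeR; 0.0554 and 0.0537 without Control 1 and Control 3). Ecscr did so too, at 254, 0 and 0 against 2813, 891 and 1878 (adjusted p = 0.0254; 0.108, 0.0993, 0.0692 and 0.052 without Control 1, Control 3, RasV12 2 and RasV12 3), and so did Cd79b, a B cell receptor chain also read in microglia, at 0, 5.5 and 162 against 926, 596 and 885 (adjusted p = 0.0332; 0.114, 0.116, 0.0812 and 0.0765 without Control 1, Control 3, RasV12 1 and RasV12 2).

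Some falls ended at a handful of reads. Of the genes given here, only Inafm1 was among the largest falls just named. Inafm1 had 3573 reads over the Control group and 1 over the RasV12 group. The ratio was 469.9 between the group means of normalized counts and 1741 between pooled reads scaled by pooled depth, to which RasV12 3 gave the most, with a 95% counting interval of the latter from 312 to 68797. Cd1d1 had 2113 reads against 0, at least 343-fold lower taking 3 reads for the whole RasV12 group as the floor, and was called at an adjusted p of 0.00074 (limma) that held without any single library. Adm, a peptide hormone gene of the hypoxia response, had 126 reads against 0, mostly in Control 2, with normalized counts of 14.9, 138 and 6.5 in Control libraries and no value above the receptor level. The limit was at least 20.5-fold lower, and 6.55-fold without Control 2 (adjusted p = 0.0279, and 0.0718 without Control 1). Gdf10, a gene of Bergmann glia, had 264 against 0, at least 42.9-fold lower. Its adjusted p (limma) was 0.0112, and 0.0553 and 0.0565 without Control 1 and Control 3. No CD11b+ value of Gdf10 was above the receptor level. Its mean was 51.4 in Control CD11b+ libraries, against 17355 in Control GFP+ and 104 in RasV12 GFP+ libraries. Lcn2, an iron-binding neutrophil granule protein, was at 0 in RasV12 libraries 1 and 2 and at 60.1 in library 3, against 2062, 775 and 2263. Its adjusted p (limma) was 0.0194, and 0.0831, 0.0852, 0.0531 and 0.0544 without Control 1, Control 3, RasV12 1 and RasV12 2. Lcn2 was not particular to CD11b+ cells here. Its mean was 1542.5 in RasV12 GFP+ and 164 in Control GFP+ libraries, against 1700 in Control CD11b+ libraries. These intervals cover counting error only, since reads without molecular identifiers are not independent molecules.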

How the data were processed

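Low-input RNA-seq libraries of GFP+ and CD11b+ mouse brain cells were analysed from tables of 54547 genes. Per the labels' protocols, RNA was taken in Sepazol, amplified with a SMARTer low-input kit and made into libraries with Nextera XT, which does not mark strand, so overlapping antisense genes share their reads. The tools, as the submitters' processing notes name them, were bcl2fastq 2.17.1.14, HISAT2 2.1.0, featureCounts in Subread 1.6.2 and DESeq2 1.20.0, with GRCm38.p6. The authors deposited normalized counts (a signal of reads divided by a size factor per library) and FPKM values. At least 99.99% of normalized counts in each library were whole multiples, within 0.05, of the value of 1 read, which gave the reads of each library back; edgeR 4.0.16 and DESeq2 1.42.0 ran on these reads as alternatives.

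The test was limma 3.58.1 with a trend on log2(normalized count + 1), over genes at 10 or more in at least 3 of the 12 libraries, with 4 group means and Benjamini-Hochberg adjustment. For genes of few reads, such a log2 difference can be smaller or larger than the change between group means. In RasV12 CD11b+ libraries 1 and 2, 1 read stood for 4.46 and 5.54 normalized counts, so a value of 0 there weighed heavily. Ly6c2, at 0 in both, had a log2 difference of -2.07, although its mean was 135.5 in RasV12 and 115.2 in Control CD11b+ libraries. Genes named were the 12 largest falls and up to 12 largest rises among called, non-overlapping genes with a mean of 100 or more and above the receptor level in all 3 libraries of the higher group, leaving out predicted and clone names, which left 3 rises; up to 4 genes of smallest adjusted p per list; and a set of key genes. Annotation was GENCODE M21 (GRCm38), matching 98.46% of gene identifiers. The comparison and the 37 gene lists were chosen with earlier results of these data known. The fit was tested on simulated data that had the same spread for all genes. They held no difference in background or RNA quality between the CD11b+ groups, so that test cannot speak to such differences. Groups came from titles; no column of another sample was present. 1 listed gene is not reported here.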

Additional observations from a re-analysis of the deposited data

How the results depend on the processing

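Each of the 59 called named genes kept its direction under every alternative that gave it a value, but counts of calls moved. Against 886 higher and 713 lower genes, the counts were 1615 higher with the FPKM table, 2197 higher and 1611 lower with array weights, 3436 and 1300 with a pseudocount of 10, 544 and 2010 with upper-quartile scaling, and 1682 lower after quantile normalization. Restricting to genes above the receptor level left 51 higher and 201 lower, and edgeR on recovered reads called 30 and 404. The 6 CD11b+ libraries alone gave 0 and 0. DESeq2 on recovered reads called 1294 and 1063, within 1.5 times of the counts given, as were those with reads thinned to the shallowest library, a robust variance, a pseudocount of 0.5, no filter and a filter of 50. Leaving out 1 library gave 219 to 3745 higher and 137 to 1503 lower genes. An alternative chosen after seeing the data left out RasV12 libraries 1 and 2, so that the remaining RasV12 library was assumed to vary like the other groups, and gave 274 higher and 562 lower. The cause of these shifts was not tested.

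With a replicate block the fit of 12 libraries called 622 higher and 590 lower genes, and 55 of the 59 called named genes stayed called. A block within the 6 CD11b+ libraries, added after seeing the data, gave 0 and 0. Deviations of same-numbered Control and RasV12 libraries correlated at -0.029, 0.067 and 0.09, and Control 1 correlated best with RasV12 3, so the numbers were not taken to pair the libraries.

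Of 59 called named genes, 15 stayed called without each library in turn, and 18, 59 and 17 without Control 1, 2 and 3. edgeR kept 30, the fit without RasV12 1 and 2 kept 20, and the 6 libraries alone kept none. Depth and background limit the tumor side most. RasV12 library 2 had 2951629 reads and a receptor level of 52.7 FPKM, by which genes of moderate expression could not be told from background.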
